A study of Homo sapiens with 10 samples.

Results

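The genes described here are 42 genes of mitosis and the spindle checkpoint, chosen as the rows of the count table whose Ensembl identifiers map to a written list of symbols, out of 21174 genes in the table. All 42 passed the filter on low counts, as did 11961 genes in all, and no member had fewer than 151 reads in any library. RNA was sequenced from clones of U2932, a human cell line established from diffuse large B cell lymphoma, which arises from mature B cells. The comparison is between 5 libraries of clones labelled CREBBP+/+ (WT_1 to WT_5) and 5 of clones labelled CREBBP+/- (Het_6 to Het_10), and no treatment or time point is given for either. CREBBP encodes a histone acetyltransferase and transcriptional coactivator. All libraries share the parent line and its culture medium, each is given as a clone, and the sources used here do not give how the CREBBP allele was altered. Separate cultures for the libraries are not stated in the labels, so that a p-value here reflects only how far these libraries spread, which may be technical.

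Most of these genes are transcribed late in the cell cycle, so that their mRNA rises from S phase into G2 and mitosis. Their proteins switch on CDK1, build the spindle, attach chromosomes to it, hold anaphase back until every kinetochore is attached, and then divide the cell. Germinal centre B cells divide fast, and the products of several of these genes, such as Ki-67, are used by pathologists to grade proliferation.

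Total counts ran from 10615977 (Het_9) to 23020694 reads (Het_6). CREBBP mRNA, in counts per 1e+06 reads (CPM), was 115 ± 13.5 in the CREBBP+/+ group and 69.6 ± 10.2 in the CREBBP+/- group (mean ± SD of 5 libraries each, exact two-sided permutation p = 0.00794, the lowest value that 5 against 5 can give). The libraries form 3 clusters that cross the genotypes, WT_1, WT_2 and Het_8 (the WT_1 cluster), WT_3, WT_4, WT_5, Het_6 and Het_7 (the WT_3 cluster), and Het_9 and Het_10 (the Het_9 cluster, which holds no CREBBP+/+ library). Clustering 11786 genes without the mitotic and related genes listed here gave the same 3 groups. These are nearly all of the 11961 genes tested, so this is a weak check that could hardly have changed the groups. B cell markers were present in every library (1946 to 3462 summed CPM over 6 genes), and those of T, NK, myeloid, erythroid and stromal cells summed to at most 2.30 CPM each, with CD3D, CD2, NKG7, S100A8, HBB and COL1A2 at 0 throughout. The 3 epithelial markers summed to 1.64 to 24.8 CPM over WT_1 to WT_5 and 13.7 to 26.7 CPM over Het_6 to Het_10. Nearly all of this was EPCAM, with KRT8 and KRT18 at 0.164 CPM or less in every library. EPCAM had 3.33 and 1.42 CPM in WT_1 and WT_2 and 13.7 to 26.7 CPM in all other libraries of both genotypes.

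Promoter sequences are shown for members that behaved differently, to set the known cell cycle elements beside the values. Of the 42 genes, 34 have a promoter window in RefSeq (GRCh38.p14, 250 bases before to 50 after the start). The searched motifs were TTTGAA and TTTAAA, the core forms of the cell cycle genes homology region bound by the MuvB complex, and CCAAT, the NF-Y box, each on both strands, so that TTCAAA and ATTGG count too. The 150 bases upstream of the start are printed 5′ to 3′ on the gene's own strand, with the motifs in capitals, and neighbouring motifs can share letters. The starts are RefSeq's, and those of PLK1, CENPA, HMMR and KIF11 lie inside the gene spans of the GENCODE annotation, which begin further upstream. CCNB1 (chr5:69167000-69167149, plus strand), PLK1 (chr16:23678739-23678888, plus), CENPA (chr2:26785906-26786055, plus), CDC20 (chr1:43358831-43358980, plus) and HMMR (chr5:163460482-163460631, plus) had the largest deficits in Het_8 among members with a window, while KIF11 (chr10:92592980-92593129, plus) and MKI67 (chr10:128126424-128126573, minus) had almost none; this choice was made after the values were seen.
CCNB1: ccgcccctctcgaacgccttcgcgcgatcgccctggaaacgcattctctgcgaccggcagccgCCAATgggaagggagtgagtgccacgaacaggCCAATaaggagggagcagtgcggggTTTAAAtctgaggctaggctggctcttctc
PLK1: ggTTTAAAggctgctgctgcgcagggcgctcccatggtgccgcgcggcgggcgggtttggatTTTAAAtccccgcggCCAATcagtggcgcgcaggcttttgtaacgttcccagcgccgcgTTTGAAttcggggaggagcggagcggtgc
CENPA: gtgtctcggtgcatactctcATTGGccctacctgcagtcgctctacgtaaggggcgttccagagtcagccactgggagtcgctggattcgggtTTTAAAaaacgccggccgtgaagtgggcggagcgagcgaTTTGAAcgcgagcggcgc
CDC20: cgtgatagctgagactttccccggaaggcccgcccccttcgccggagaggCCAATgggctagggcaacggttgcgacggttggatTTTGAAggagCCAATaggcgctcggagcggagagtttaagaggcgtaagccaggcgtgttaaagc
HMMR: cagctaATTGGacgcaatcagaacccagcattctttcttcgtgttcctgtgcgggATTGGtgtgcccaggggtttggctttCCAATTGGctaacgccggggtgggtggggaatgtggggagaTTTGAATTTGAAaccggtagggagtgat
KIF11: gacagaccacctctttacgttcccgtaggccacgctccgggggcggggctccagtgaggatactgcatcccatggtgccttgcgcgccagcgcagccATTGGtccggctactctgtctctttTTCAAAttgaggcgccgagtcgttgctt
MKI67: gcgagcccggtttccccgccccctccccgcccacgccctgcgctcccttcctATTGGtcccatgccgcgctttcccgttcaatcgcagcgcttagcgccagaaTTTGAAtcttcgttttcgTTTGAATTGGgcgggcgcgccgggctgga

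Every one of these 7 stretches held at least 1 TTTGAA or TTTAAA and at least 1 CCAAT, those of KIF11 and MKI67 included. The TTTGAA or TTTAAA nearest the start began 30 bases upstream of it in CCNB1 (TTTAAA), 29 in PLK1, 18 in CENPA, 22 in HMMR, 28 in KIF11, 29 in MKI67 and 65 in CDC20. In CCNB1 a pair of CCAAT boxes lay 32 bases apart. Over the full windows, TTTGAA or TTTAAA was found in 31 of the 34 genes (91.2%), against 27.9% of 27305 genes in the same table, and CCNA2, BUB1 and AURKB had neither. CCAAT was found in 28 (82.4% against 39.7% of all genes), and 2 or more CCAAT in 19 (55.9% against 12.9%). CCAAT stood in the same window as TTTGAA or TTTAAA in 24 (70.6% against 11.2%). A match is a description of the letters and not a measured binding site.

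Between the genotypes, no mitotic gene was called. EdgeR's quasi-likelihood test with Benjamini-Hochberg adjustment over 11961 genes called 0 of the 42, with 0% of all tested genes called, and the members' adjusted p-values lay between 0.977 and 0.998. The same test did not call CREBBP itself, at a log2 fold change of -0.73 (SE 0.12, adjusted p = 0.395). A difference of that size could thus go uncalled here. At an unadjusted p under 0.05 there was 1 member, AURKB, against 4.98% of all genes. With the library clusters as a covariate, where only the WT_1 and WT_3 clusters hold both genotypes, 0 members were called (0% of all genes) and 8 had an unadjusted p under 0.05, 7 of them lower, against 12.7% of all genes. DESeq2 called 0 members (0.212% of all genes), and limma-voom 0 (0% of all genes). The member log2 fold changes of CREBBP+/- over CREBBP+/+ ran from -0.33 (CDC20) to 0.23 (PRC1), with 15 above 0 and 27 below. Their median was -0.06, beside -0.01 for all genes tested, of which 47.6% were above 0. In no member did the genotypes separate without overlap, as they did in 0.594% of all genes with CREBBP+/- lower and 0.426% with it higher. Without Het_8, the library that was lowest for most members, the median was -0.0045 and 20 members were above 0. The bounds of the 95% confidence intervals of the 42 log2 fold changes ran from -0.68 to 0.66.

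**Figure D1:**
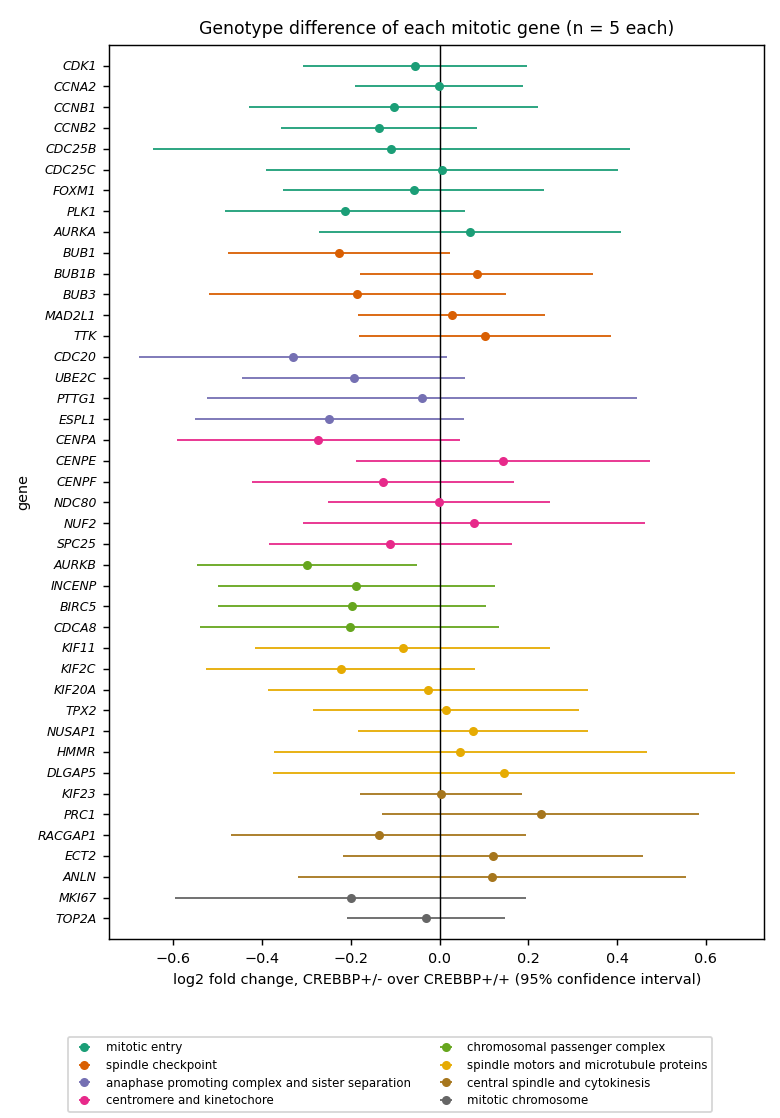
Log2 fold change of each mitotic gene, CREBBP+/- over CREBBP+/+ libraries (n = 5 each), with its 95% confidence interval as a bar, coloured by role. The point estimates lie between -0.33 for CDC20 and 0.23 for PRC1, and 1 interval, that of AURKB, does not cross 0.

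Genes of mitotic entry had a median log2 fold change of -0.06, with 2 of 9 above 0. CCNB1, the cyclin that activates CDK1 at entry (ENSG00000134057, chromosome 5, 69167135 to 69178245, GRCh38), had 187, 201, 189.9, 182 and 164 CPM in WT_1 to WT_5 and 209, 191, 112, 180.2 and 168 CPM in Het_6 to Het_10. Het_8 alone lay below 164 CPM, and without it the genotypes covered nearly the same range, with a log2 fold change of -0.10 (SE 0.15) over all libraries. CCNB2, the second mitotic B-type cyclin, had 95.0, 110.1, 94.5, 101 and 119 CPM in WT_1 to WT_5 and 98.9, 97.9, 77.6, 101 and 97.2 CPM in Het_6 to Het_10. Its highest value was in WT_5, the genotypes overlapped, and its log2 fold change was -0.14 (SE 0.10). CDC25B, a phosphatase that activates CDK1 (ENSG00000101224, chromosome 20, 3786772 to 3806121), had 107, 94.9, 179.9, 235 and 190.3 CPM in WT_1 to WT_5 and 168, 158, 107, 155 and 160.0 CPM in Het_6 to Het_10. It was low in the 3 libraries of the WT_1 cluster, whatever their genotype, and highest in WT_4, so that the highest and the lowest library differed by 2.48-fold. PLK1, the polo-like kinase of centrosomes and spindle (ENSG00000166851, chromosome 16, 23677656 to 23690367), had 241, 221, 221, 215 and 237 CPM in WT_1 to WT_5 and 211, 199.5, 138, 209 and 222 CPM in Het_6 to Het_10. Apart from Het_8 it stayed within 199.5 to 241 CPM, and its log2 fold change was -0.21 (SE 0.12). AURKA, the Aurora kinase of centrosomes (ENSG00000087586, chromosome 20, 56369389 to 56392337), had 82.3, 80.3, 91.9, 90.1 and 81.5 CPM in WT_1 to WT_5 and 94.4, 92.1, 55.6, 108 and 96.5 CPM in Het_6 to Het_10. Het_8 was its lowest library and Het_9 its highest, both of them CREBBP+/-. The other members of this group were CDK1, the kinase itself, with 84.5 to 118 CPM over the 10 libraries, the cyclin CCNA2 with 167 to 215 CPM, the phosphatase CDC25C with 9.53 to 16.2 CPM and FOXM1, a transcription factor of G2 and mitosis genes, with 111 to 184 CPM. Their log2 fold changes were -0.06, -0.00099, 0.0047 and -0.06 in that order.

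The median log2 fold change of the spindle checkpoint genes, whose products delay anaphase, was 0.03, with 3 of 5 above 0. BUB1, a checkpoint kinase of the kinetochore (ENSG00000169679, chromosome 2, 110637528 to 110678063), had 97.5, 87.2, 79.3, 82.3 and 75.5 CPM in WT_1 to WT_5 and 80.8, 83.5, 70.4, 66.9 and 58.9 CPM in Het_6 to Het_10. Het_8, Het_9 and Het_10 were below every CREBBP+/+ library, while Het_6 and Het_7 lay among them, for a log2 fold change of -0.23 (SE 0.11). BUB3, its binding partner (ENSG00000154473, chromosome 10, 123154402 to 123170467), had 209, 223, 152, 168 and 150.1 CPM in WT_1 to WT_5 and 163, 148, 204, 142 and 136 CPM in Het_6 to Het_10. The 3 libraries of the WT_1 cluster had 204 CPM or more and the others 168 or fewer, and the difference between genotypes was -0.19 (SE 0.15) on the log2 scale. BUB1B, which encodes the checkpoint protein BubR1, had 144 to 214 CPM, MAD2L1, the inhibitor of CDC20, 103 to 143 CPM, and TTK, the kinase MPS1, 45.1 to 74.8 CPM. Their log2 fold changes were 0.08, 0.03 and 0.10.

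The 4 genes of the anaphase promoting complex and sister separation were all below 0, with a median of -0.22. CDC20, the activator of that ubiquitin ligase (ENSG00000117399, chromosome 1, 43358981 to 43363203), had 173, 169.9, 155, 229 and 196 CPM in WT_1 to WT_5 and 143, 129.6, 107, 176 and 177 CPM in Het_6 to Het_10. Het_6, Het_7 and Het_8 were below the lowest CREBBP+/+ library, and Het_9 and Het_10 were within the CREBBP+/+ range. Its log2 fold change was -0.33 (SE 0.16), the lowest of the 42. PTTG1, which encodes securin, the inhibitor of separase (ENSG00000164611, chromosome 5, 160421855 to 160428739), had 117, 121, 199, 231 and 187 CPM in WT_1 to WT_5 and 200.0, 201, 115, 159 and 157 CPM in Het_6 to Het_10. The order followed the clusters, with 115 to 121 CPM in the WT_1 cluster, 157 and 159 in the Het_9 cluster and 187 or more in the WT_3 cluster, and the genotype difference was -0.04 (SE 0.22). ESPL1, the separase that cuts cohesin (ENSG00000135476, chromosome 12, 53268299 to 53293638), had 157, 172, 199, 192 and 172 CPM in WT_1 to WT_5 and 186, 181, 134, 122 and 129 CPM in Het_6 to Het_10. Het_8, Het_9 and Het_10 were below every CREBBP+/+ library and Het_6 and Het_7 were not. UBE2C, the conjugating enzyme that supplies the complex with ubiquitin, had 64.1 to 103 CPM and a log2 fold change of -0.19 (SE 0.11).

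For centromere and kinetochore genes the median log2 fold change was -0.06, with 2 of 6 above 0. CENPA, the histone H3 variant that marks the centromere (ENSG00000115163, chromosome 2, 26764289 to 26801067), had 45.5, 37.5, 38.9, 38.7 and 33.4 CPM in WT_1 to WT_5 and 40.2, 37.6, 25.1, 28.4 and 29.1 CPM in Het_6 to Het_10. As for ESPL1 and BUB1, Het_8, Het_9 and Het_10 were below all CREBBP+/+ libraries while Het_6 and Het_7 lay among them, and the log2 fold change was -0.27 (SE 0.14). CENPE, a kinesin of the kinetochore (ENSG00000138778, chromosome 4, 103105349 to 103198445), had 72.7, 75.4, 80.6, 80.9 and 69.4 CPM in WT_1 to WT_5 and 112, 98.1, 65.5, 73.5 and 69.5 CPM in Het_6 to Het_10. Het_6 and Het_7 stood above the other 8 libraries, which did not separate by genotype. CENPF, a large kinetochore protein that accumulates in G2, had 429, 483, 323, 338 and 327 CPM in WT_1 to WT_5 and 375, 342, 396, 318 and 309.5 CPM in Het_6 to Het_10. Its 3 highest libraries were those of the WT_1 cluster. NUF2, a subunit of the NDC80 complex that binds microtubules (ENSG00000143228, chromosome 1, 163266576 to 163355764), had 42.8, 41.6, 62.6, 64.6 and 60.1 CPM in WT_1 to WT_5 and 62.8, 63.6, 40.2, 66.2 and 54.0 CPM in Het_6 to Het_10. The WT_1 cluster had at most 42.8 CPM and all others at least 54.0. NDC80 had 50.2 to 69.4 CPM and SPC25, another subunit, 12.4 to 18.4 CPM, with log2 fold changes of -0.0013 and -0.11.

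The chromosomal passenger complex, which corrects faulty attachments through the kinase AURKB, had all 4 members below 0 and a median log2 fold change of -0.20. AURKB (ENSG00000178999, chromosome 17, 8204733 to 8210600) had 113, 114, 128, 143 and 111 CPM in WT_1 to WT_5 and 115, 109, 83.3, 90.9 and 97.0 CPM in Het_6 to Het_10. All CREBBP+/- libraries but Het_6 were below the lowest CREBBP+/+ library. Its log2 fold change was -0.30 (SE 0.11), with an unadjusted p of 0.0227 and an adjusted p of 0.977 in edgeR's quasi-likelihood test. INCENP, the scaffold of the complex (ENSG00000149503, chromosome 11, 62123998 to 62153169), had 134, 117, 158, 164 and 144 CPM in WT_1 to WT_5 and 157, 144, 103, 106 and 119 CPM in Het_6 to Het_10. Het_8 and Het_9 were lowest, and Het_6 and Het_7 were within the range of WT_3 to WT_5 or just under it. BIRC5, which encodes survivin (ENSG00000089685, chromosome 17, 78214186 to 78225636), had 138, 125, 147, 182 and 141 CPM in WT_1 to WT_5 and 150.1, 149, 99.9, 121 and 119.7 CPM in Het_6 to Het_10. Again Het_6 and Het_7 lay among the CREBBP+/+ libraries and Het_8, Het_9 and Het_10 below all of them. CDCA8, which encodes borealin, had 128, 129.7, 93.7, 144 and 139 CPM in WT_1 to WT_5 and 97.5, 93.1, 94.2, 132 and 134 CPM in Het_6 to Het_10. It did not follow the clusters, since WT_3, Het_6, Het_7 and Het_8 had 93.1 to 97.5 CPM and the other 6 libraries 128 to 144.

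Spindle motors and microtubule proteins had a median log2 fold change of 0.01, with 4 of 7 above 0. KIF2C, a kinesin that takes microtubules apart (ENSG00000142945, chromosome 1, 44739818 to 44767767), had 107, 108, 99.9, 150.2 and 132 CPM in WT_1 to WT_5 and 97.9, 96.1, 84.6, 118 and 115 CPM in Het_6 to Het_10. WT_4 and WT_5 were its highest libraries and Het_8 its lowest, and the log2 fold change was -0.22 (SE 0.14). HMMR, a protein of spindle poles (ENSG00000072571, chromosome 5, 163460203 to 163491941), had 75.7, 77.3, 102, 95.4 and 102 CPM in WT_1 to WT_5 and 103, 107, 52.5, 109 and 95.5 CPM in Het_6 to Het_10. Het_8 was lowest, followed by the other 2 libraries of its cluster, while the other 7 libraries had 95.4 to 109 CPM. DLGAP5, which binds and stabilises spindle microtubules (ENSG00000126787, chromosome 14, 55148112 to 55191608), had 84.6, 91.7, 140.0, 132 and 122 CPM in WT_1 to WT_5 and 156, 172, 70.2, 122 and 109 CPM in Het_6 to Het_10. The WT_1 cluster was low and Het_6 and Het_7 were highest, a 2.45-fold range, with a log2 fold change of 0.14 (SE 0.24). NUSAP1, a microtubule bundling protein, had 231, 251, 266, 275 and 331 CPM in WT_1 to WT_5 and 300.1, 276, 234, 323 and 293 CPM in Het_6 to Het_10. WT_5 and Het_9 were its 2 highest libraries, 1 of each genotype. The remaining motors were KIF11, the kinesin that pushes the spindle poles apart, with 91.0 to 138 CPM, and KIF20A, a kinesin of late mitosis, with 46.0 to 81.4 CPM. TPX2, which activates AURKA on the spindle, had 198 to 329 CPM. Their log2 fold changes were -0.08, -0.03 and 0.01.

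Genes of the central spindle and cytokinesis had the highest median log2 fold change, 0.12, with 4 of 5 above 0. PRC1, which bundles the central spindle (ENSG00000198901, chromosome 15, 90966040 to 90995629), had 121, 129, 152, 165 and 203 CPM in WT_1 to WT_5 and 172, 168, 141, 221 and 199 CPM in Het_6 to Het_10. Its 3 highest libraries, Het_9, WT_5 and Het_10, mixed the genotypes, and its log2 fold change of 0.23 (SE 0.16) was the highest of the 42. RACGAP1, which forms the centralspindlin complex with KIF23, had 78.1, 100.3, 108, 98.4 and 94.2 CPM in WT_1 to WT_5 and 107, 98.3, 60.3, 89.1 and 79.9 CPM in Het_6 to Het_10. Het_8 was lowest, and the genotypes overlapped in the other libraries. ANLN, which encodes the ring protein anillin (ENSG00000011426, chromosome 7, 36389821 to 36453791), had 31.6, 32.2, 51.4, 46.3 and 40.2 CPM in WT_1 to WT_5 and 57.0, 54.7, 34.7, 39.3 and 33.2 CPM in Het_6 to Het_10. WT_1, WT_2, Het_8 and Het_10 had 31.6 to 34.7 CPM, and Het_6 and Het_7 were highest. KIF23, the kinesin of centralspindlin, had 66.0 to 80.2 CPM and ECT2, the exchange factor that activates RHOA at the cleavage site, 87.6 to 142 CPM. Their log2 fold changes were 0.0028 and 0.12.

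Of the 2 mitotic chromosome genes, MKI67 differed between clusters and TOP2A hardly varied. MKI67, which encodes Ki-67 (ENSG00000148773, chromosome 10, 128096659 to 128126423), had 537, 583, 457, 541 and 466 CPM in WT_1 to WT_5 and 539, 487, 578, 305 and 340.2 CPM in Het_6 to Het_10. The Het_9 cluster was far below every other library, and Het_8 was the second highest. Its log2 fold change between genotypes was -0.20 (SE 0.18), and the direction turned without Het_9 and Het_10, to 0.051, and with the clusters as a covariate, to 0.062. TOP2A, the topoisomerase that untangles chromosomes, had 588, 625, 569.7, 614 and 586 CPM in WT_1 to WT_5 and 642, 578, 535, 624 and 539.9 CPM in Het_6 to Het_10. Its highest and lowest libraries differed by 1.20-fold, the smallest range of the 42, and its log2 fold change was -0.03 (SE 0.08).

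**Figure D2:**
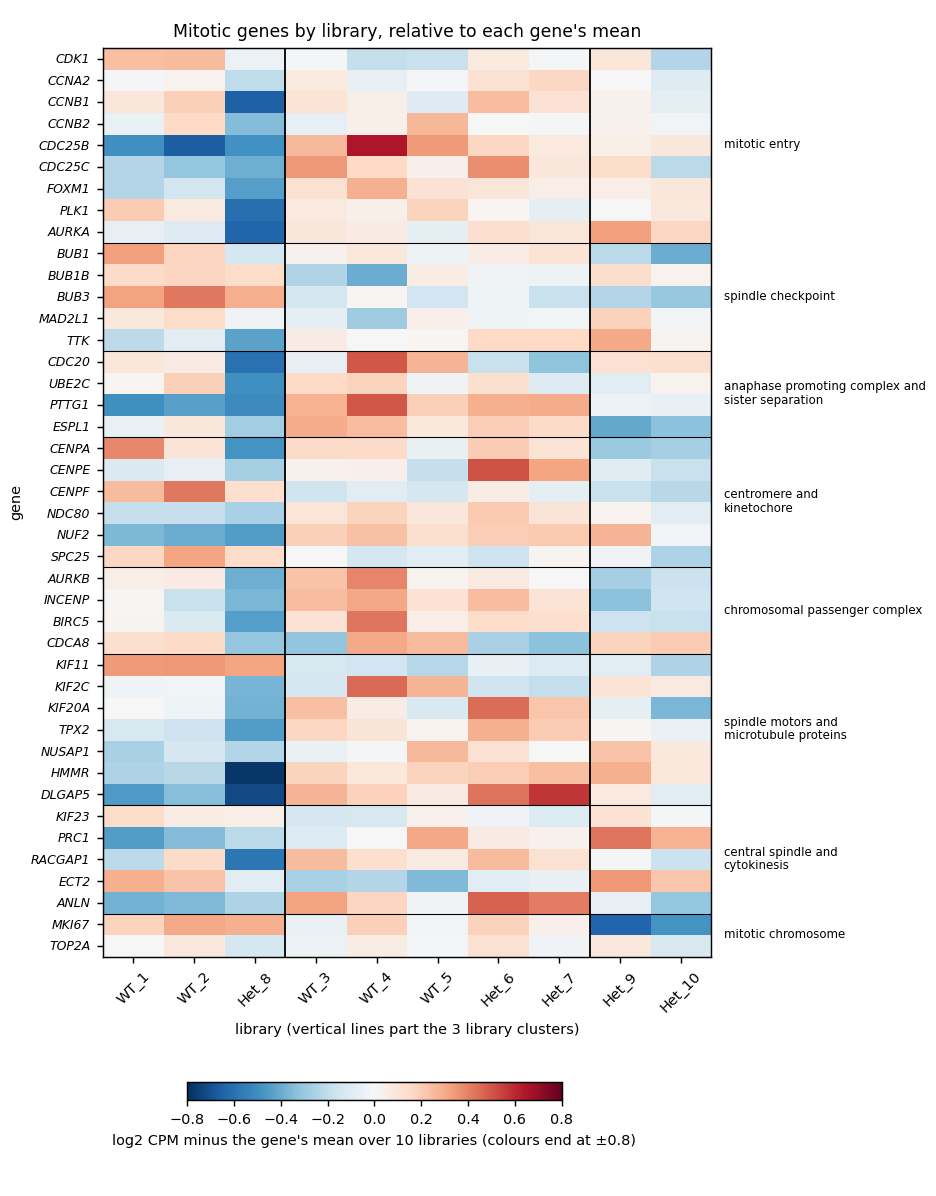
Log2 CPM of each mitotic gene in each library minus the gene's mean over the 10 libraries, grouped by role, with libraries ordered by cluster (lines part the clusters). The column of Het_8 is low in most rows, and Het_9 and Het_10 are low for MKI67, ESPL1 and CENPA.

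Het_8 had the lowest level of the mitotic genes as a group. It was the lowest of the 10 libraries for 25 of the 42 members (59.5%), against 14.5% of all genes tested, and the highest for 0, against 14.3% of all genes. The summed CPM of the members was 5269 in Het_8, 5712 in Het_10 and 6014 to 6578 in the other 8 libraries. With other scalings Het_8 was lowest for 24 members (library totals), 25 (DESeq2 size factors) and 22 (upper quartile), against 13.6%, 14.3% and 11.9% of all genes. Het_10 was lowest for 6 members, and no other library for more than 3. The Het_8 total of 18471293 reads was within the range of the rest and its mitochondrial share of counts, 9.72%, within the CREBBP+/- range of 8.89 to 10.2%, above 7.85 to 8.51% in CREBBP+/+ libraries. The part of the mitochondrial share in the result was not tested. In bulk RNA, fewer cells in mitosis and less of these mRNAs per cell cannot be told apart.

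**Figure D3:**
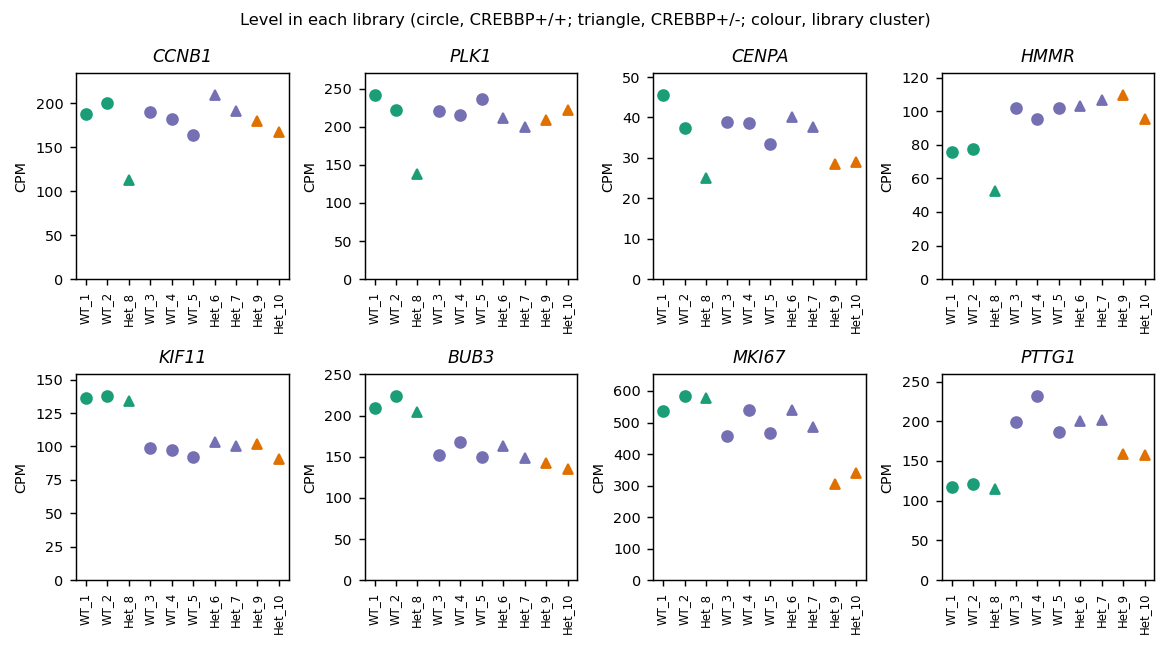
CPM of 8 mitotic genes in each library, with libraries grouped by cluster (colour) and genotype marked by shape. CCNB1, PLK1, CENPA and HMMR are lowest in Het_8, KIF11 and BUB3 are high in WT_1, WT_2 and Het_8, MKI67 is low in Het_9 and Het_10, and PTTG1 is low in WT_1, WT_2 and Het_8.

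The median Het_8 deficit differed between roles, which hold 2 to 9 genes each, but members of the same role also differed widely. Measured against the mean of WT_1 and WT_2, the CREBBP+/+ libraries of its own cluster, the median log2 difference of Het_8 was -0.28 over the members and 0.0035 over all genes. It was -0.44 for the genes of the anaphase promoting complex and sister separation, -0.42 for the passenger complex, -0.33 for spindle motors and microtubule proteins and -0.29 for mitotic entry. It was -0.15 for the checkpoint, -0.14 for the kinetochore, -0.07 for the 2 mitotic chromosome genes and -0.06 for cytokinesis. The anaphase group held both CDC20 (-0.68) and PTTG1 (-0.05). The kinetochore group held CENPA (-0.71) and the cytokinesis group RACGAP1 (-0.55), so a pattern by role is not shown. Het_8 was below both WT_1 and WT_2 in 37 members (88.1%, against 38.3% of all genes). The largest differences on the log2 scale were those of CCNB1 (-0.79), PLK1 (-0.75), CENPA (-0.71), CDC20 (-0.68) and UBE2C (-0.59). These 5 were each at least 1.5-fold lower in Het_8. Members near 0 were BUB1B (-0.02), KIF11 (-0.03), NUSAP1 (-0.04), MKI67 (0.05) and PTTG1 (-0.05). PRC1 (0.18), ANLN (0.12) and CDC25B (0.09) were above 0. These are values of 1 library against 2 and carry no test.

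Inside the WT_3 cluster the 2 CREBBP+/- libraries did not share this deficit. The median log2 difference of Het_6 and Het_7 from WT_3, WT_4 and WT_5 was 0.04 over the members and -0.0022 over all genes. Het_6 and Het_7 were both below the 3 CREBBP+/+ libraries in 5 members (18.4% of all genes), CDC25B, FOXM1, PLK1, CDC20 and KIF2C. They were both above them in 12 (17.8% of all genes), among them CENPE, DLGAP5, ECT2, ANLN, CCNB1 and AURKA. CENPE had the largest difference, 0.45, and CDC20 the lowest, -0.48. Of the 5 that were lower, FOXM1, PLK1, CDC20 and KIF2C were also lower in Het_8 than in both WT_1 and WT_2. The same was true of 37 of all 42 members (88.1%) and rests on 1 library, so it does not set these genes apart.

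**Figure D4:**
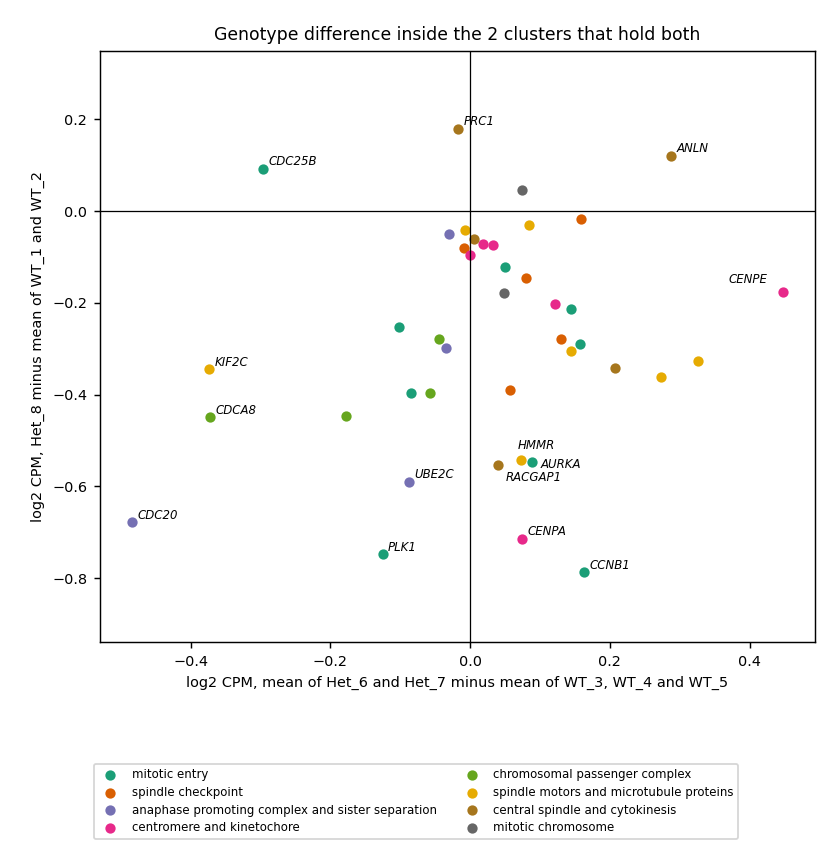
Each point is a mitotic gene, coloured by role, with the log2 CPM of Het_6 and Het_7 minus that of WT_3, WT_4 and WT_5 on the x axis and of Het_8 minus that of WT_1 and WT_2 on the y axis (differences of means). Most points lie below 0 on the y axis and near 0 on the x axis, with CCNB1 and PLK1 lowest in Het_8 and CDC20 low on both axes.

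The difference between these 2 genotype effects was tested for every gene in a fit with a term for each cluster and genotype. Its arm in the WT_1 cluster rests on Het_8, 1 library, whose spread is taken from the other groups. EdgeR's quasi-likelihood test called 1 member, CCNB1, at -0.95 (SE 0.15, adjusted p = 0.0446), with 0.259% of all genes called. The call did not hold when WT_1, WT_2, WT_4, Het_6, Het_7, Het_9 or Het_10 was left out (adjusted p 0.0897 to 0.253). It held without WT_3 or WT_5 (0.0111 to 0.0499), and without WT_3 the count of members called was 6. DESeq2 called 9 members, all lower, with 2.43% of all genes called. They were CCNB1, PLK1, AURKA, CENPA, CENPE, TPX2, HMMR, DLGAP5 and ECT2. At an unadjusted p under 0.05 in edgeR there were 17 members, all lower, where 14.7% of all genes passed in either direction and 6.52% lower. The estimate was below 0 in 39 of the 42, with a median of -0.25, beside 48.7% and 0.01 for all genes.

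The 9 genes differed in which libraries set the estimate. PLK1 (-0.62, SE 0.13), CENPA (-0.79, SE 0.19), AURKA (-0.64, SE 0.15) and HMMR (-0.62, SE 0.14) were mainly low in Het_8. For CENPE (-0.62, SE 0.17) the larger part was the high level in Het_6 and Het_7. DLGAP5 (-0.65, SE 0.16), ECT2 (-0.55, SE 0.13) and TPX2 (-0.45, SE 0.12) combined a lower Het_8 with higher Het_6 and Het_7. CDC20, low in CREBBP+/- libraries of both clusters, had an estimate of -0.18 (SE 0.23).

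Levels also differed between the clusters in ways that genotype does not follow. Because the clusters were found from expression in these libraries, these values are a description and carry no test. All 3 libraries of the WT_1 cluster were below all 5 of the WT_3 cluster in 15 members (35.7%, against 23.9% of all genes). They were CDC25B, CDC25C, FOXM1, TTK, PTTG1, NDC80, NUF2, INCENP, BIRC5, TPX2, NUSAP1, HMMR, DLGAP5, PRC1 and ANLN. In the CREBBP+/+ libraries alone, WT_1 and WT_2 were below WT_3, WT_4 and WT_5 in the same 15 genes (35.7%, against 33.1% of all genes). The first count already implies this for these genes, so it adds no support. WT_1 and WT_2 were above WT_3, WT_4 and WT_5 in 10 members (23.8%, against 30.6% of all genes). The largest log2 differences between cluster means were those of CDC25B (-0.84), DLGAP5 (-0.81) and PTTG1 (-0.79). The WT_1 cluster was above the WT_3 cluster in 6 members (14.3%, against 21.9% of all genes), BUB1B, BUB3, CENPF, SPC25, KIF11 and KIF23. The leading ones were KIF11 (0.47), with 134 to 138 against 92.3 to 104 CPM, and BUB3 (0.44).

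Het_9 and Het_10 were below the WT_3 cluster in 14 members (33.3%, against 20.9% of all genes) and above it in 2 (19.3% of all genes). The 2 above were AURKA and ECT2. The lowest relative to the WT_3 cluster were MKI67 (-0.63), ESPL1 (-0.56), ANLN (-0.45) and INCENP (-0.45). MKI67 and TOP2A, which are often read together as proliferation markers, parted here. MKI67 had 305 and 340.2 CPM in Het_9 and Het_10 against 457 to 541 in the WT_3 cluster, and TOP2A had 624 and 539.9 against 569.7 to 642. The WT_3 cluster includes Het_6 and Het_7, so the 14 members were also lower in Het_9 and Het_10 than in these CREBBP+/- libraries. For MKI67, Het_6 and Het_7 had 539 and 487 CPM. The Het_9 cluster holds no CREBBP+/+ library, so a genotype difference inside it could not be measured.

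Some of these differences between clusters were set beside those of neighbouring genes. On chromosome 10 the 421 tested genes had a median log2 difference of 0.36 between the WT_1 and the WT_3 cluster, and 4 members lie there, CDK1, KIF11, BUB3 and MKI67. KIF11 (ENSG00000138160, chromosome 10, 92574105 to 92655395) differed by 0.47, and its 107 tested neighbours within 10 Mb had a median of 0.51. BUB3 differed by 0.44 and its 54 neighbours by 0.44. CDK1 (ENSG00000170312, chromosome 10, 60778331 to 60794852) at 0.21 and MKI67 at 0.19 lay below their neighbours, at 0.50 and 0.49. PTTG1 at -0.79, CDC25B at -0.84 and NUF2 at -0.59 were far from their neighbours' medians of -0.06, -0.10 and -0.05, and HMMR at -0.59 from -0.0050. DLGAP5 at -0.81 had neighbours at -0.39. On chromosome 15, BUB1B at 0.29 and KIF23 at 0.16 were near their neighbours, at 0.24 and 0.16. The other members there, CCNB2 (-0.13), NUSAP1 (-0.27) and PRC1 (-0.40), lay below theirs, at 0.26, 0.23 and -0.14. CENPF at 0.35 and SPC25 at 0.28 were above their neighbours, at 0.09 and 0.14. The part of copy number in these values was not tested.

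**Figure D5:**
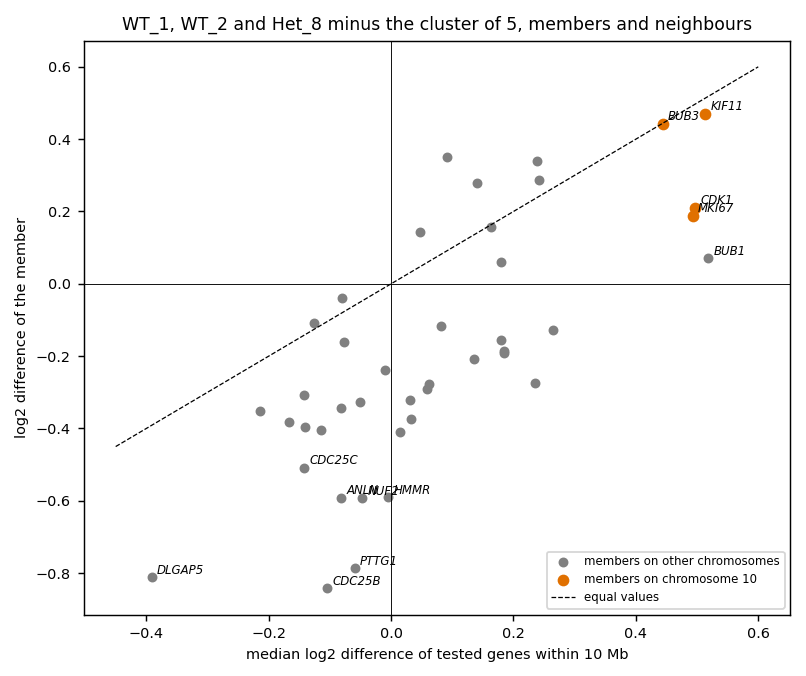
Each point is a mitotic gene, with the median log2 difference (WT_1 cluster minus WT_3 cluster) of tested genes within 10 Mb on the x axis and its own difference on the y axis, members on chromosome 10 in orange and equality as a dashed line. KIF11 and BUB3 lie near the line at 0.51 and 0.44, and CDC25B, PTTG1 and DLGAP5 lie far below it.

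Per kilobase of the canonical transcript the members spanned a wide range of levels. PTTG1 was highest, at 236 CPM per kb (161 to 324 over the libraries), and its lowest library was above the highest of every other member. NUSAP1 (123), UBE2C (117), TOP2A (104) and CDC20 (100.4) came next, with ranges over the libraries that overlapped. CDC25C (6.08), ANLN (8.89), CENPE (9.34) and SPC25 (11.1) were lowest. The highest library exceeded the lowest by a median of 1.66-fold over the members, against 1.65-fold for the 8960 genes with a mean of at least 10 CPM. The ratio was above 2-fold for 5 members, CDC25B, DLGAP5, CDC20, HMMR and PTTG1. In 10 members an exon overlaps another gene of the table, such as CENPA with SLC35F6, BUB1B with PAK6 and PLK1 with ERN2. The sources used here do not say whether reads were counted by strand, so those levels are uncertain.

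Other genes of the same machinery were read from written lists, and none of their members was called between genotypes in edgeR. For 31 other kinetochore genes the median log2 fold change was -0.0029, with 15 above 0, and Het_8 was lowest in 8 (25.8%). Over all genes tested, Het_8 was lowest in 14.5%, the share to set beside the counts of each list. CENPK, of the inner kinetochore, had 0.22 (SE 0.08) and CENPM -0.27 (SE 0.10). For 17 subunits and partners of the anaphase promoting complex the median was -0.02, with 6 above 0, and Het_8 was lowest in 5 (29.4%). ANAPC16 had -0.20 (SE 0.10) and ANAPC15 -0.16 (SE 0.11). For 21 condensin and cohesin genes the median was -0.05, with 8 above 0, and Het_8 was lowest in 7 (33.3%). NCAPD2, a condensin subunit, had 333, 379, 281, 334 and 328 CPM in WT_1 to WT_5 and 289.6, 264, 232, 236 and 267 CPM in Het_6 to Het_10, a log2 fold change of -0.36 (SE 0.10), and NCAPG 0.20 (SE 0.11). All CREBBP+/- libraries but Het_6 were below WT_3, the lowest CREBBP+/+ library, for NCAPD2, and its edgeR adjusted p was 0.842.

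For 30 further mitotic kinases, motors and spindle proteins the median was -0.03, with 13 above 0. Het_8 was lowest in 12 (40%), against 14.5% of all genes tested, the nearest of these lists to the 59.5% of the 42 members. KIF18B, a kinesin, had -0.22 (SE 0.10) and PKMYT1, the kinase that holds CDK1 inactive, -0.27 (SE 0.13). For 15 genes of the DREAM and MuvB complexes and NF-Y the median was -0.07, with 6 above 0, and Het_8 was lowest in 3 (20%, near the 14.5% of all genes). TFDP1, the dimer partner of E2F factors, had 0.31 (SE 0.16) and E2F4 -0.23 (SE 0.13). For 18 tested genes of G1 and the step into S phase the median was -0.14, with 2 above 0. Het_8 was the lowest library for 0 of them (14.5% of all genes). CDK4 had -0.32 (SE 0.18) and E2F3 -0.17 (SE 0.09). Against WT_1 and WT_2, Het_8 had a median log2 difference of 0.04 over these G1 genes, 0.0035 over all genes and -0.28 over the 42 mitotic genes.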

How the data were processed

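RNA-seq libraries of 5 CREBBP+/+ and 5 CREBBP+/- clones of U2932 were compared. The authors deposited a table of raw counts of reads with a row for each Ensembl gene and a column for each library. Per the submitters' processing notes, the tools were STAR, featureCounts, FastQC and DESeq2, with no versions, and the build was GRCh38. Options of the counting step are not given in the sources used. Large deposited counts (from 10000 up) keep 4 significant digits. The CREBBP+/- columns carry numbers that no label has and were used as members of their group. Depth was 10615977 to 23020694 reads per library, and the lowest count of a member was 151.

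Counts were fitted over the whole table with edgeR 4.0.16 in R 4.3.3 (TMM factors, filterByExpr with minimum count 10 and minimum total 15, robust quasi-likelihood F-test), and two-sided p-values, adjusted by the Benjamini-Hochberg method and called under 0.05, run over the 11961 genes tested. The difference between the genotype effects of 2 clusters was tested in a fit with a term for each cluster and genotype. CPM use TMM factors, and log2 CPM a prior count of 2. Single values were compared by an exact permutation test over 252 assignments. The fits were also run on simulated counts. These held no differences between clusters, so they do not show how the fits perform on the present libraries. DESeq2 1.42.0, limma-voom (limma 3.58.1), other scalings and filters, the clusters as a covariate and left-out libraries were the alternatives. Scalings of the counts of members that were lowest in a library or separated clusters were added after the data were seen.

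The members and lists were chosen with earlier results of these data known. All 42 members are named. Values in every library are given for the 2 members per role with the smallest p between genotypes and the 2 with the largest span between clusters, and 2 genes with the smallest p are named per other list. The values of CCNB1, CDCA8, NCAPD2 and the additional genes with promoter sequences were chosen for printing after they were seen.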

Additional observations from a re-analysis of the deposited data

Results flagged for a closer look

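In 84 groups of 5 log2 CPM values (42 genes, each genotype), 8 had a library set apart from the other 4 by most of the spread of its group. For a single group chance gives this about 1 time in 20. The 84 groups repeat the same 10 libraries and are not independent, so the count of 8 cannot be set against that rate. Of the 8, 6 were Het_8 as the lowest CREBBP+/- library. It had a log2 CPM of 6.28 for the cyclin CCNB2 (next library 6.60), 6.75 for the phosphatase CDC25B (next 7.27), 6.80 for the transcription factor FOXM1 (next 7.29), 7.10 for PLK1 (next 7.64), 5.80 for AURKA (next 6.53) and 5.72 for HMMR (next 6.58). CDC25B was equally low in WT_1 and WT_2, and the others were lower in Het_8 than in both. Het_9 was the highest CREBBP+/- library for MAD2L1, at 7.16 (next 6.95). WT_3 was the lowest CREBBP+/+ library for CDCA8, at 6.55 (next 7.0). The genotype effect differed between the WT_1 and the WT_3 cluster for CCNB1, at -0.95 (SE 0.15, edgeR adjusted p = 0.0446), an estimate in which 1 arm is Het_8 alone.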

How the results depend on the processing

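No member was called between genotypes under any of the 8 other settings or the 10 leave-one-out fits run in edgeR, DESeq2 or limma-voom, and the members' median log2 fold change stayed below 0, at -0.088 to -0.0045 when each library was left out. The number of members called for the genotype effect between clusters was 1 in the edgeR fit, 9 with DESeq2, 0 without Het_9 and Het_10 together, and 0 to 6 when each library was left out. Of 990 recomputed log2 fold changes between genotypes (42 members, 12 genes of other lists and CREBBP), 911 kept direction and side of the threshold, 78 changed sign and 1, CREBBP with DESeq2, passed the threshold, and 34 genes never changed sign.

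With DESeq2 size factors in edgeR the log2 fold change was 0.0020 for CCNA2 and 0.0024 for NDC80. With upper-quartile factors it was 0.024 for CCNA2 and 0.024 for NDC80, and with at least 1 CPM in 5 libraries 0.00090 for CCNA2 and 0.00076 for NDC80. Limma-voom gave -0.011 for CDC25C and -0.0029 for TPX2, and no filter -0.00053 for CDC25C and -0.0033 for KIF23. With the clusters as a covariate it was 0.00087 for CDK1, 0.020 for CCNA2, -0.0074 for CDC25C, -0.13 for AURKA, -0.0038 for MAD2L1, -0.010 for TTK, 0.0076 for CENPF, -0.013 for NUF2, 0.043 for KIF11, 0.058 for KIF20A, -0.011 for TPX2, -0.023 for NUSAP1, -0.13 for HMMR, -0.019 for KIF23 and 0.062 for MKI67. Without Het_9 and Het_10 it was 0.037 for CCNA2, -0.075 for AURKA, -0.015 for MAD2L1, 0.013 for PTTG1, 0.027 for NDC80, 0.0049 for KIF11, 0.11 for KIF20A, -0.00079 for NUSAP1, -0.046 for HMMR, -0.028 for KIF23, -0.033 for ECT2 and 0.051 for MKI67. The cause of these changes was not tested.

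Leaving out each library gave -0.11 to 0.0024 for CDK1, -0.045 to 0.046 for CCNA2, -0.18 to 0.016 for CCNB1, -0.25 to 0.065 for CDC25B, -0.094 to 0.10 for CDC25C, -0.12 to 0.031 for FOXM1, -0.0094 to 0.20 for AURKA, -0.035 to 0.069 for MAD2L1, -0.15 to 0.094 for PTTG1, -0.053 to 0.058 for NDC80, -0.0053 to 0.18 for NUF2, -0.16 to 0.056 for KIF20A, -0.056 to 0.11 for TPX2, -0.016 to 0.20 for HMMR and -0.029 to 0.041 for KIF23. For the difference between clusters it gave -0.11 to 0.050 for PTTG1, -0.16 to 0.12 for CDCA8, -0.087 to 0.20 for KIF2C, -0.13 to 0.031 for NUSAP1 and -0.11 to 0.042 for MKI67.

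The number of members lowest in Het_8 was 22 to 25, and those with the WT_1 cluster wholly below the WT_3 cluster 14 to 17, over 3 other scalings. No paired analysis was possible because the CREBBP+/- columns carry none of the numbers of the CREBBP+/+ columns. With 5 libraries a group the fits could miss small differences, and the arm of Het_8 rests on 1 library. All members had at least 151 reads in each library, so depth limits them less than the spread between libraries.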

Other observations

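Genes of the other lists were also set beside their neighbours, a comparison chosen after the values were seen. All 7 listed genes on chromosome 13, CDC16, TFDP1, CKAP2, BORA, SKA3, RB1 and PDS5B, were lower in the WT_1 cluster than in the WT_3 cluster, where the 203 tested genes of that chromosome had a median log2 difference of -0.26. In Het_9 and Het_10, 6 of the 7 were higher than in the WT_3 cluster, beside a chromosome median of 0.50. TFDP1, the dimer partner of E2F factors, had 819.6 and 790.03 CPM in Het_9 and Het_10 against 460.3 to 551 CPM elsewhere. CKAP2, a spindle microtubule protein, had 406 and 355 CPM against 181 to 239. PDS5B, a cohesin regulator, was the exception at -0.61 with neighbours at 0.41. TRIP13, an ATPase that recycles checkpoint complexes, NIPBL, the cohesin loader, and SKP2 lie on chromosome 5 and were lower in Het_9 and Het_10 by log2 differences of -1.05, -0.93 and -0.74, with neighbours within 10 Mb at -1.04, -0.97 and -0.97. The other genes of these lists on chromosome 5, CENPH (-0.19), CENPK (0.04) and CDC23 (0.0065), differed less. The median over that whole chromosome was -0.07.

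SMC1A, E2F1, E2F2 and the genes set beside them were also chosen after their values were seen. SMC1A, the cohesin subunit on the X chromosome, had 1234 to 1399 CPM in WT_1, WT_2 and Het_8 and 371 to 418 CPM in the other 7 libraries. The log2 difference between the WT_1 and the WT_3 cluster was 1.67, and its 77 tested neighbours within 10 Mb had a median of -0.02. No gene of the 42 differed as much between these clusters. In the other lists, PBK differed by -1.93 and CCNE2 by -1.66. CCND1 differed by 3.57, at 8.46 CPM or less in every library.

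E2F1 and E2F2 are activators of S phase genes. Their difference between the genotype effects of the 2 clusters was 0.87 and 0.95, called by DESeq2 (adjusted p = 0.00664 and 0.0462) and not by edgeR (0.139 and 0.197). Het_8 was above the mean of WT_1 and WT_2 by log2 differences of 0.46 and 0.23, and Het_6 and Het_7 were below WT_3, WT_4 and WT_5 for both genes. E2F1 had 75.4, 65.9, 139, 176 and 161 CPM in WT_1 to WT_5 and 115, 123, 96.9, 94.9 and 109 CPM in Het_6 to Het_10. E2F2 had 80.7, 85.6, 111, 165 and 141 CPM in WT_1 to WT_5 and 79.6, 88.3, 97.1, 94.3 and 125 CPM in Het_6 to Het_10.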
